A study of Mus musculus with 6 samples.

Results

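The comparison was of PLAGL2 clone 1, the enteroid line that the labels give a low PLAGL2 level, with the GFP control line. Its differences are taken from 4 of the 6 libraries of the study, with GFP and clone 1 each sequenced at passage 5 and at passage 7. The libraries were chosen by their labels and were paired by passage. Of 40769 gene identifiers, the 16314 with an RPKM (a read count scaled by gene length and library size) of at least 0.5 in 2 or more of the 6 libraries were compared. All lines were enteroids, which are epithelial cultures grown from intestinal crypts in Matrigel, here from the jejunum of C57BL/6 mice and kept in serum-free ENR medium without further treatment. The piggyBac transposon, which integrates into the genome, carried GFP in the control line and PLAGL2 for constitutive expression in clone 1 and in clone 3, the line labelled high. Every line is represented by a single transfected culture and each passage by 1 library. The p-values below come from fits of all 6 libraries, clone 3 included, with a term for passage unless stated. They therefore measure how far the differences between lines vary between passages, not the spread between independent transfections. The integration site, the clone and the transgene cannot be told apart.

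PLAGL2 belongs to the PLAG family of zinc finger transcription factors, which bind GC-rich sites and also include the oncogene PLAG1 and the imprinted gene PLAGL1. Intestinal epithelium renews itself from crypt stem cells, which depend on Wnt signalling. Their progeny become absorptive enterocytes or one of several secretory types. Goblet cells secrete mucus, Paneth cells secrete antimicrobial proteins, enteroendocrine cells secrete hormones, and tuft cells sense the gut contents.

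The 6 libraries held 13779306 to 17319950 reads as recovered from the steps of the RPKM values. A listed 0 allows up to 3 reads, an RPKM of 0.173 to 0.218 for a gene of 1 kb, and this floor covers counting error only. Epithelial markers were high throughout, with Epcam between an RPKM of 478 and 554 and Vil1 between 196 and 289. Summed over 24 fibroblast and muscle genes, RPKM was 42.6 and 34.8 in GFP and 43.3 and 37.7 in clone 1, with 8 of the 24 at 0 in all 4 libraries. Summed over 22 endothelial and glial genes it was 17.4 and 19.9 in GFP and 16.5 and 20.9 in clone 1, with 5 of the 22 at 0. The 32 blood cell genes found in the table summed to 15.0 and 20.1 in GFP and 15.9 and 20.1 in clone 1, with 13 of the 32 at 0. Of the 7 that were tested, Csf1r, a receptor of macrophages, passed with voom alone, at 0.173 and 0.193 in GFP and 0.886 and 0.451 in clone 1 (adjusted p = 0.0332). The mitochondrially encoded share of RPKM was 10.8% and 13.03% in GFP and 11.2% and 12.6% in clone 1. In clone 3 alone the Y-linked gene Ddx3y was almost absent, at 0.0115 and 0.0638 against 11.2 to 12.2 in the other 4 libraries, while 3 other Y-linked genes were at similar levels in all lines.

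Plagl2 itself (ENSMUSG00000051413, chromosome 2, 153227759 to 153241426) had an RPKM of 22.8 and 23.1 in GFP at passages 5 and 7, 30.9 and 26.5 in clone 1, and 37.2 and 37.2 in clone 3. The clone 1 libraries lay above the GFP libraries, as for 13.6% of the genes tested, while for 12.5% they lay below. The 3 lines followed the order of their labels without overlap, as for 2.93% of the genes tested. The increase in clone 1 was 0.31 on the log2 scale (SE 0.07) and did not pass the test (limma, Benjamini-Hochberg adjusted p = 0.355). Clone 3 exceeded clone 1 by 0.37, which did not pass with limma (adjusted p = 0.203) and passed with voom (adjusted p = 0.02296). Reads of the transgene, if any of its sequence differs from the mouse gene or lacks its untranslated parts, may be counted only in part, so these levels describe the gene's entry in the table.

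Between clone 1 and GFP, 5 genes rose, which is 0.0306% of the 16314 tested, and 7 fell, which is 0.0429% (limma on log2(RPKM + 0.5) with terms for line and passage, adjusted p under 0.05, 2 residual degrees of freedom). The 5 that rose were Ifitm3, Nes, Cyp2w1, Lct and Aspg. The 7 that fell were Mmp14, Gimap1, Clca1, Smpdl3a, Zg16, Aldh1l1 and Gcg. All 12 also passed when the reads recovered from the RPKM values were tested with voom, which weights each value by its read depth. That test called 154 genes higher, 0.944% of 16313, and 136 lower, 0.834%. Before adjustment, limma gave a p under 0.05 to 848 higher and 713 lower genes. Most or all of the limma calls were lost with any 1 library left out. In those fits 1 residual degree of freedom was left and the lone library of a line was assumed to vary like the others. The loss therefore does not show which libraries a call rests on. A fit of the clone 1 and GFP libraries alone also had 1 residual degree of freedom. It kept Ifitm3 and Lct as higher and Aldh1l1, Clca1 and Zg16 as lower. Nes, Cyp2w1, Aspg, Mmp14, Gimap1, Smpdl3a and Gcg did not pass there. Without the term for passage, 3 genes (Ifitm3, Nes and Cyp2w1) passed as higher and 2 (Mmp14 and Gimap1) as lower.

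A difference in the same direction at both passages was common by itself. It was found for 5062 genes higher, 31.0% of those tested, and 4744 lower, 29.1%. Differences at passage 5 and at passage 7 correlated across genes with Pearson's r = 0.23 and Spearman's rho = 0.28. These are descriptions across genes, which are not independent replicates. A difference of at least 2-fold at both passages on the log2(RPKM + 0.5) scale was found for 111 genes higher, 0.680%, and for 78 lower, 0.478%. Among them were 43 protein-coding genes and 29 microRNA loci on the higher side, and 28 and 26 on the lower side. The microRNA loci rest on few reads, with a median of 4 and of 3 over the 4 libraries. An example is Mir7119, the gene of a microRNA, with 0 and 0 reads in GFP and 4 and 1 in clone 1 (adjusted p = 0.272). Of the 2-fold genes, 38 higher and 30 lower passed with voom.

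**Figure D1:**
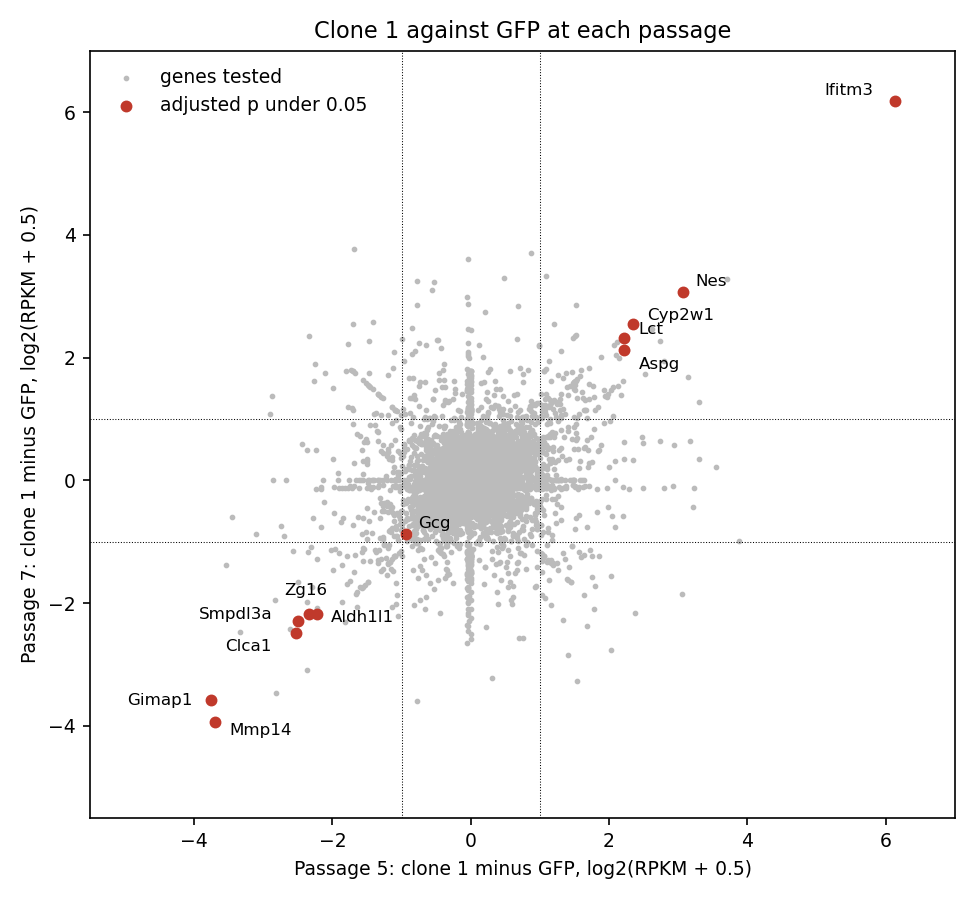
Difference between clone 1 and GFP on the log2(RPKM + 0.5) scale at passage 5 (x axis) and passage 7 (y axis), with 1 point per gene tested, dotted lines at 2-fold, and the 12 genes past the threshold in red. Ifitm3 stands alone at 6.14 and 6.19, and 11 of the 12 lie beyond 2-fold at both passages, Gcg being the exception at -0.94 and -0.87.

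The smallest adjusted p with limma among the genes tested was that of Ifitm3 (ENSMUSG00000025492, chromosome 7, 141009586 to 141010770), an interferon-induced membrane protein that restricts the entry of enveloped viruses and marks primordial germ cells. It had an RPKM of 0.888 and 1.39 in GFP at passages 5 and 7, 97.3 and 137 in clone 1, and 0.620 and 1.08 in clone 3. In reads these are 10 and 13, 1143 and 1435, and 7 and 11. Ifitm3 was thus low in both GFP and clone 3, and clone 1 was at 110 times the GFP value at passage 5 and 98.5 times at passage 7. The rise was 6.16 on the log2 scale (SE 0.07, limma adjusted p = 0.000449), and clone 3 was below clone 1 by 6.45 (adjusted p = 0.000366).

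Ifitm1, Ifitm2 and Ifitm5, its neighbours on chromosome 7, did not pass the test. Ifitm2, a paralog of the same cluster, had an RPKM of 125 and 161 in GFP, 134 and 179 in clone 1 and 149 and 174 in clone 3, with a log2 difference of 0.12 between clone 1 and GFP (adjusted p = 0.624). Ifitm1 stayed at or below 0.592 in GFP and clone 1. Ifitm5, known as a bone-restricted member, was at 1.36 and 2.87 in GFP and at 1.22 and 2.56 in clone 1. Reads that match more than 1 Ifitm paralog may have been split between them, which was not tested, so the level of each is uncertain to that extent. Of the 28 interferon response genes tested, of 53 listed, Ifitm3 was the only one past the threshold. At both passages 9 were higher and 10 were lower, against 31.0% and 29.1% of all genes. The median log2 difference was -0.03, against 0.00 for all genes. Bst2, an interferon-induced tether of virus particles, was at 8.04 and 10.3 in GFP and at 6.20 and 7.38 in clone 1 (adjusted p = 0.250). Ifit1, an antiviral RNA-binding protein, was at 0.386 and 0.137 in GFP and 0.783 and 0.390 in clone 1 (adjusted p = 0.522).

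Gimap1, a GTPase of a family best known from lymphocyte survival, fell in clone 1. It is in a cluster on chromosome 6 (ENSMUSG00000090019, 48739054 to 48743795). Its RPKM was 9.62 and 11.3 in GFP, 0.247 and 0.485 in clone 1, and 3.88 and 5.42 in clone 3. The GFP values were 39.0 and 23.4 times those of clone 1, and the log2 difference was -3.67 (SE 0.11, adjusted p = 0.00558). Gimap5, its neighbour, had 118 and 162 reads in GFP, 46 and 68 in clone 3 and 0 in both clone 1 libraries. Against a floor of 3 reads per library, Gimap5 was at least 41.0-fold lower in clone 1 at passage 5 and at least 60.5-fold lower at passage 7. Its log2 difference of -3.14 did not pass with limma (adjusted p = 0.0666) and passed with voom (adjusted p = 0.00105). Gimap9 was at 2.86 and 5.39 in GFP and 2.18 and 2.56 in clone 1 (adjusted p = 0.429). Those were the 3 of 8 Gimap genes that passed the filter. They were lower at both passages, with a median of -3.14. The summed RPKM of the blood cell genes, which include genes of lymphocytes, is given above for each library, and its part in the Gimap values was not tested. The gene model Gm28053 overlaps Gimap1, Gimap5 and Gimap7, so reads of this stretch may be shared.

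**Figure D2:**
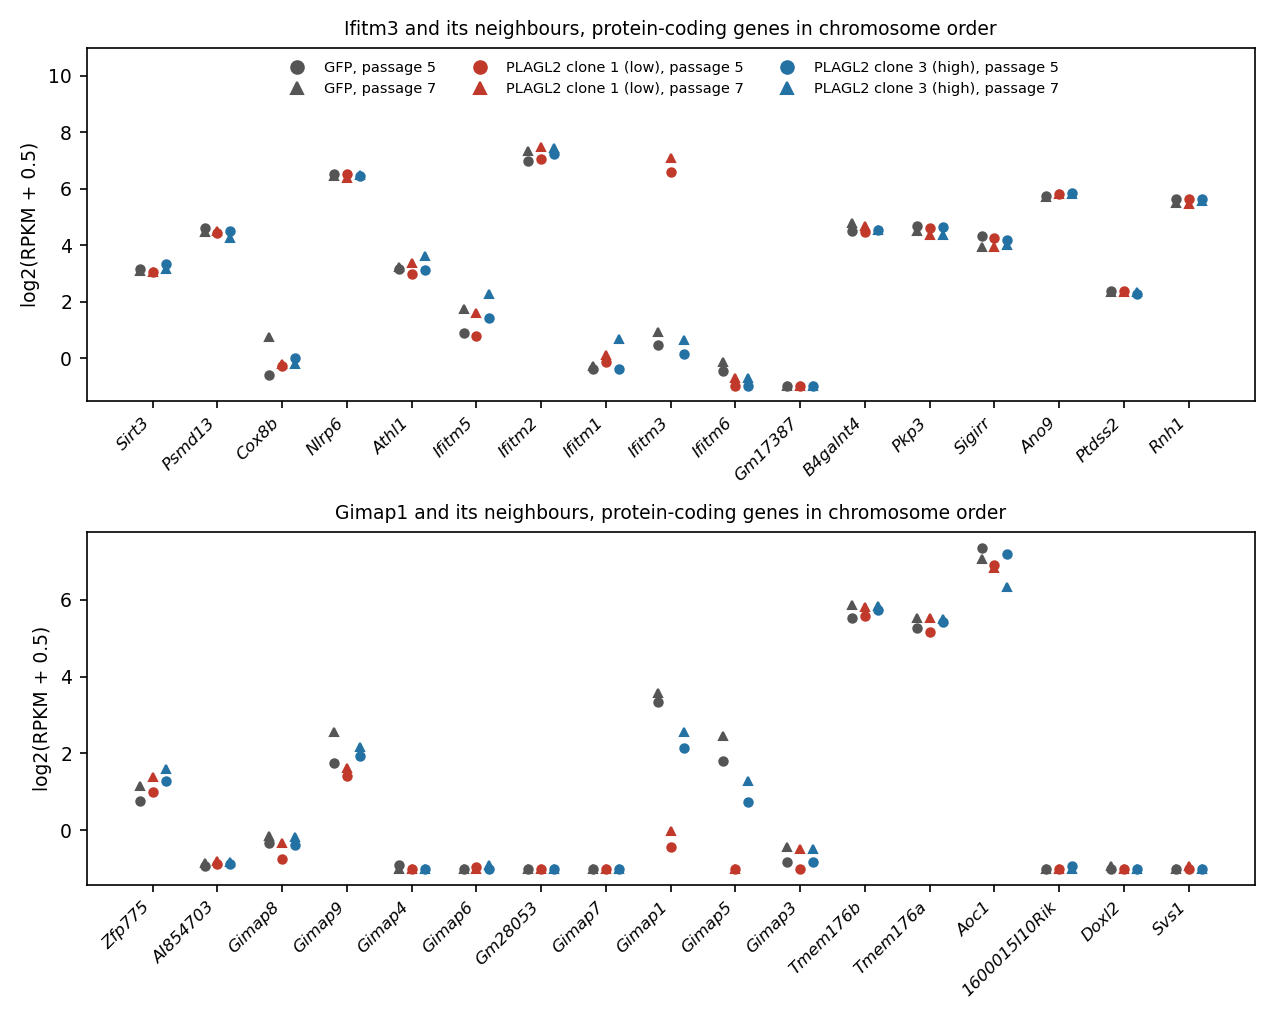
Level on the log2(RPKM + 0.5) scale (y axis) of the protein-coding genes around Ifitm3 (upper panel) and around Gimap1 (lower panel), in chromosome order along the x axis, with 1 point per library, circles for passage 5 and triangles for passage 7. In the upper panel the clone 1 points part from the others at Ifitm3, and in the lower panel the lines separate at Gimap1 and Gimap5.

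The other genes that rose were at higher levels again in clone 3. The difference passed with limma for Cyp2w1 and Aspg, and with voom for Nes and Lct as well. Nes encodes nestin, an intermediate filament protein known from neural progenitors. Its RPKM was 0.178 and 0.272 in GFP, 5.19 and 5.95 in clone 1, and 15.0 and 13.2 in clone 3. The rise in clone 1 was 3.07 (SE 0.14, adjusted p = 0.0162). Clone 3 against clone 1 did not pass with limma (adjusted p = 0.0756) and passed with voom (adjusted p = 0.0005735). Cyp2w1, a cytochrome P450 known from fetal gut and from colorectal tumours, was at 1.27 and 1.30 in GFP, 8.52 and 9.98 in clone 1 and 41.3 and 46.7 in clone 3. Its rise was 2.45 (SE 0.08, adjusted p = 0.00600), and clone 3 exceeded clone 1 by 2.19 (adjusted p = 0.00976).

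Lct encodes lactase, the brush border enzyme that splits milk sugar. It was at 8.70 and 3.13 in GFP, 42.2 and 17.6 in clone 1, and 67.8 and 24.6 in clone 3. Each line was lower at passage 7, and clone 1 was 4.86 and 5.62 times the GFP line at the same passage. The rise was 2.27 (SE 0.07, adjusted p = 0.00558). Clone 3 against clone 1 did not pass with limma (adjusted p = 0.0879) and passed with voom (adjusted p = 0.001567). Aspg encodes an asparaginase, and was at 0.970 and 0.611 in GFP, 6.34 and 4.34 in clone 1, and 17.9 and 15.3 in clone 3. Its rise was 2.17 (SE 0.11, adjusted p = 0.0217), and clone 3 was above clone 1 by 1.57 (adjusted p = 0.0348).

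Of the genes that fell, Mmp14 encodes a membrane-bound matrix metalloproteinase. Its RPKM was 8.001 and 8.75 in GFP, 0.156 and 0.0998 in clone 1, and 0 and 0.0766 in clone 3. In reads these are 345 and 313 in GFP, 7 and 4 in clone 1, and 0 and 3 in clone 3. Mmp14 was therefore near the floor in both PLAGL2 lines, with a log2 difference of -3.82 in clone 1 (SE 0.18, adjusted p = 0.0199). With a pseudocount of 0.1 or with no filter on low values this call was lost. The calls of Nes, Aspg and Gcg were also lost with no filter. Among 42 genes of matrix, proteases and adhesion tested, Mmp14 was the single call with limma. At both passages 21 were higher and 11 lower, against 31.0% and 29.1% of all genes. With an unadjusted p under 0.05, 8 were higher and 1 lower, against 848 and 713 of all 16314 genes. With voom 4 higher and 1 lower passed, against 0.944% and 0.834% of all genes. Mmp7, the Paneth cell matrilysin, was at 34.9 and 46.5 in GFP and 41.3 and 47.1 in clone 1 (adjusted p = 0.666).

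Aldh1l1 and Smpdl3a fell in clone 1 while clone 3 was near the GFP level. Aldh1l1 encodes the formyltetrahydrofolate dehydrogenase of folate metabolism. It was at 26.8 and 19.9 in GFP, 5.31 and 4.02 in clone 1, and 24.5 and 19.9 in clone 3. The log2 difference was -2.20 (SE 0.06, adjusted p = 0.00522), and clone 3 was above clone 1 by 2.14 (adjusted p = 0.00356). Smpdl3a, a phosphodiesterase related to acid sphingomyelinase, was at 9.39 and 10.5 in GFP, 1.26 and 1.76 in clone 1, and 8.05 and 10.4 in clone 3. Its difference was -2.39 (SE 0.09, adjusted p = 0.0108), and clone 3 exceeded clone 1 by 2.28 (adjusted p = 0.0117).

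**Figure D3:**
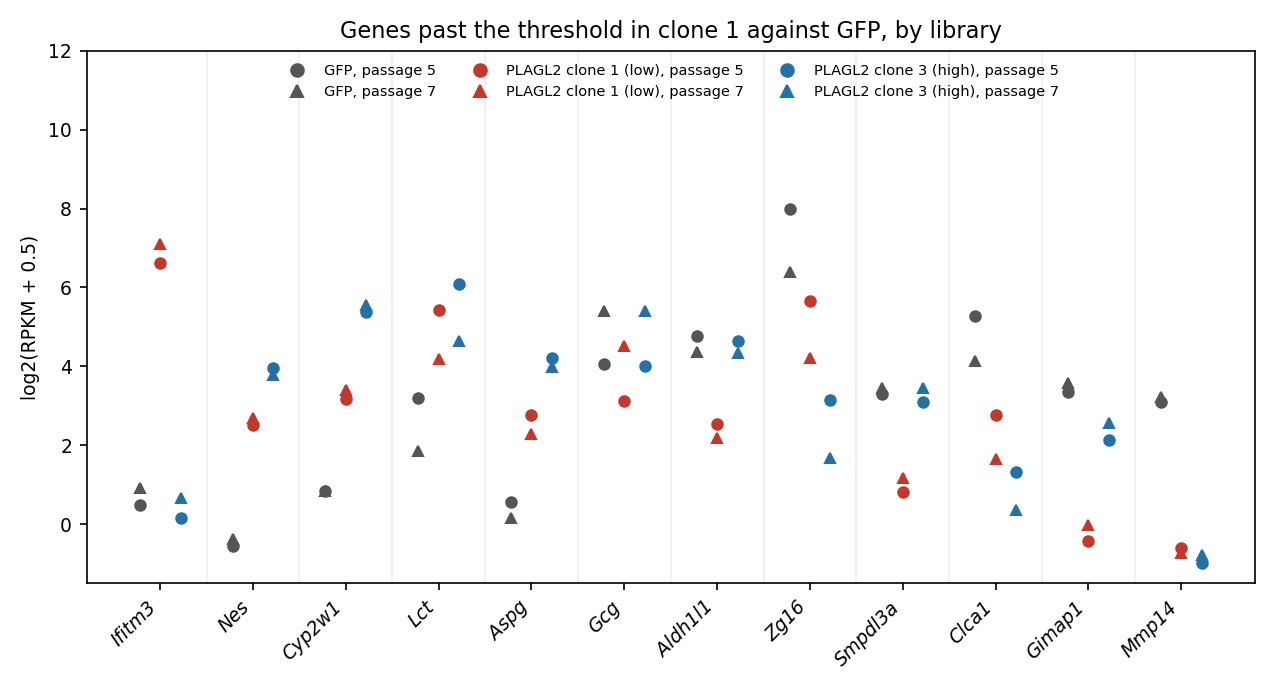
Level on the log2(RPKM + 0.5) scale (y axis) of the 12 genes past the threshold in clone 1 against GFP (x axis), with 1 point per library and passages marked by circles (passage 5) and triangles (passage 7). For Ifitm3, Smpdl3a, Aldh1l1 and Gcg the clone 3 points lie by the GFP points, whereas for Zg16, Clca1, Cyp2w1, Nes and Aspg clone 1 lies between GFP and clone 3.

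Promoter sequence is shown for the 5 genes that rose. The choice of genes to print was made after the matches were known. Each window of 300 bases ends shortly after the start of the gene, from RefSeq on GRCm38.p6. They were searched on both strands for a fixed form of a core and cluster pattern described for PLAG factors. This form was GGGGCNNNNNNGGG with 6, 7 or 8 free bases, and matches are in capitals. Other forms of the pattern were not searched. The windows are Cyp2w1 at chr5:139352366-139352665 on the plus strand, Aspg at chr12:112106433-112106732 on the plus strand, Ifitm3 at chr7:141010695-141010994 on the minus strand, Nes at chr3:87970843-87971142 on the plus strand, and Lct at chr1:128328269-128328568 on the minus strand.
Cyp2w1: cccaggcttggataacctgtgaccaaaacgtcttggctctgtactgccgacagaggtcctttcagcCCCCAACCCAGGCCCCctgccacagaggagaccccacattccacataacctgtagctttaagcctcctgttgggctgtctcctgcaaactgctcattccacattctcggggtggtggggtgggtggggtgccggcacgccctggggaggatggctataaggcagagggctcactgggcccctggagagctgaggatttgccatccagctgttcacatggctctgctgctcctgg
Aspg: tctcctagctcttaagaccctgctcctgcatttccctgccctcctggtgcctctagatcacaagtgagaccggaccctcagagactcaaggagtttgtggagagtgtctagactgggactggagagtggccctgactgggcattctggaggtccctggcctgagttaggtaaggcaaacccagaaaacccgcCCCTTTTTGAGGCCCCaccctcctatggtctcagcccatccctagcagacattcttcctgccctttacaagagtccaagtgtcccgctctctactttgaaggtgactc
Ifitm3: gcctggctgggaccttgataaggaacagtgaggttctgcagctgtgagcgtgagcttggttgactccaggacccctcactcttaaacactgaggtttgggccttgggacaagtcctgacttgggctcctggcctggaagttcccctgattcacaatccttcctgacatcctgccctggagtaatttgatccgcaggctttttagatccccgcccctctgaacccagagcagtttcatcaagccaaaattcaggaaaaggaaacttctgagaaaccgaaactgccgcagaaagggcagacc
Nes: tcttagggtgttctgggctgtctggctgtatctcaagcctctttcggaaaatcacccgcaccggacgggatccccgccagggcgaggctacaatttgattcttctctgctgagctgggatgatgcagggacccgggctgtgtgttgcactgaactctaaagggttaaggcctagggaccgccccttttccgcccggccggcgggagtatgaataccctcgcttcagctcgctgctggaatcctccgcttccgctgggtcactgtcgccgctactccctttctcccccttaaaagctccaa
Lct: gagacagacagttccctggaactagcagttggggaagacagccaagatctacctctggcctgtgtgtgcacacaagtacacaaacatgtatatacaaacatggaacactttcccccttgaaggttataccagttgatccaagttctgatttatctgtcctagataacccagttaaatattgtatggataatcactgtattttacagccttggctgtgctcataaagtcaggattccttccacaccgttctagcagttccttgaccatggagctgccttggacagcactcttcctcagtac

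A window was present for 9 of the 12 genes past the threshold, of which 2 held a match and 7 did not. Cyp2w1 held 2 overlapping matches and Aspg 1. Ifitm3, Nes and Lct held 0, as did Gcg, Gimap1, Aldh1l1 and Mmp14 among the genes that fell. The Aldh1l1 window, at 90550543 to 90550842 on chromosome 6, lies inside the gene as annotated here, which starts at 90486427. Sequence at that outer start was not searched. Over all RefSeq windows off chromosome 18, 15.9% held a match, and of the 9943 genes tested that have a window, 28.3% did. Among protein-coding genes 2-fold higher at both passages, 10 of the 31 with a window held one, and among those 2-fold lower, 3 of 21. A match describes letters in the window and not a bound site.

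Of 29 goblet cell genes tested, Zg16 and Clca1 fell in clone 1 and none rose. An unadjusted p under 0.05 was found for 15 lower and 1 higher, against 713 lower and 848 higher among all 16314 genes. At both passages 20 were lower and 4 higher, against 29.1% and 31.0% of all genes. The median log2 difference was -0.32, against 0.00 for all genes. Zg16, a mucus lectin that binds Gram-positive bacteria, was at 255 and 83.4 in GFP, 50.2 and 18.03 in clone 1, and 8.40 and 2.71 in clone 3. The log2 difference was -2.26 (SE 0.06, adjusted p = 0.00522), and clone 3 was below clone 1 by a further 2.52 (adjusted p = 0.00192). Clca1, a secreted metalloprotease that processes mucus, was at 38.3 and 17.1 in GFP, 6.26 and 2.65 in clone 1, and 2.004 and 0.768 in clone 3. Its log2 difference was -2.50 (SE 0.08, adjusted p = 0.00641). Both genes were lower at passage 7 than at passage 5 in every line, and at each passage the lines kept the order GFP, clone 1, clone 3.

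Further goblet cell genes passed with voom and not with limma. Muc2, the main secreted gut mucin, was at 112 and 81.1 in GFP, 52.5 and 46.9 in clone 1, and 25.6 and 25.8 in clone 3 (voom adjusted p = 0.00217, limma 0.155). Fcgbp, a mucus component bound to Muc2, was at 263 and 214 in GFP, 147 and 143 in clone 1, and 70.4 and 68.9 in clone 3 (voom 0.00172, limma 0.128). For both, the 3 lines fell in the order GFP, clone 1, clone 3 without overlap, as for 2.11% of the genes tested. Ern2, a goblet cell stress sensor of the endoplasmic reticulum, was at 20.7 and 20.2 in GFP and 11.96 and 15.1 in clone 1 (voom 0.0239, limma 0.258). Agr2, the disulfide isomerase needed for mucin folding, was the sixth member to pass with voom (adjusted p = 0.0164). Spdef, a transcription factor of goblet and Paneth cell maturation, was at 10.2 and 11.1 in GFP and 9.74 and 12.02 in clone 1 (limma adjusted p = 0.971). In bulk RNA, fewer goblet cells and less of these transcripts per cell cannot be told apart, and the same holds for the cell types below.

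Among 33 enteroendocrine genes tested, Gcg fell and was the only one past the threshold. Gcg encodes proglucagon, the precursor of the L cell hormone GLP-1. Its RPKM was 16.3 and 41.6 in GFP, 8.23 and 22.5 in clone 1, and 15.7 and 41.5 in clone 3. Each line was higher at passage 7, and clone 3 was close to GFP at both passages. The log2 difference in clone 1 was -0.91 (SE 0.05, adjusted p = 0.0256), and clone 3 was 0.88 above clone 1 (adjusted p = 0.0207). Chga, the general enteroendocrine marker chromogranin A, was at 32.0 and 43.5 in GFP and 28.9 and 39.6 in clone 1 (adjusted p = 0.753). Ghrl, the hormone ghrelin, was at 17.5 and 23.8 in GFP and at 12.1 and 17.9 in clone 1 (adjusted p = 0.133). At both passages 9 genes of the list were higher and 13 lower, against 31.0% and 29.1% of all genes, and the median was -0.07. An unadjusted p under 0.05 was found for 0 higher and 8 lower, against 848 higher and 713 lower among all 16314 genes. With voom, 0 higher and 1 lower passed.

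No Paneth, tuft or stem cell gene passed with limma. Of all 16314 genes, 31.0% were higher and 29.1% lower at both passages. An unadjusted p under 0.05 was found for 848 higher and 713 lower. With voom, 0.944% passed as higher and 0.834% as lower. Of 26 Paneth cell genes tested, 14 were higher and 7 lower at both passages, with 7 and 4 at an unadjusted p under 0.05, and 4 higher passed with voom. Mptx2, a secreted pentraxin, was at 13.1 and 20.9 in GFP, 31.9 and 49.95 in clone 1, and 31.5 and 32.5 in clone 3 (voom adjusted p = 0.0113, limma 0.172). Lyz1, Paneth cell lysozyme, was at 704 and 740 in GFP and 550 and 636 in clone 1 (limma adjusted p = 0.556), against 198 and 284 in clone 3. Of 22 tuft cell genes, 6 were higher and 9 lower at both passages, 0 and 2 at an unadjusted p under 0.05. Plcg2, a phospholipase of tuft cell signalling, passed with voom, at 11.5 and 11.99 in GFP and 8.47 and 8.54 in clone 1 (adjusted p = 0.0181).

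Of 26 stem cell genes tested, 20 were higher and 2 lower at both passages, against 31.0% and 29.1% of all genes. The median was 0.15, against 0.00 for all genes. With an unadjusted p under 0.05, 9 were higher and 0 lower, against 848 and 713 of all 16314 genes. With voom 2 higher passed, against 0.944% of all genes. Lgr5, a marker of crypt stem cells, was at 25.7 and 41.2 in GFP, 38.8 and 55.0 in clone 1, and 39.2 and 75.6 in clone 3 (voom adjusted p = 0.0411, limma 0.333). Igfbp4, a binding protein of insulin-like growth factors, was at 2.65 and 7.54 in GFP, 13.6 and 20.7 in clone 1, and 3.12 and 13.1 in clone 3 (voom adjusted p = 0.0333, limma 0.258). Ascl2, a transcription factor of stem cells, was at 7.55 and 14.2 in GFP and at 13.9 and 20.7 in clone 1 (limma adjusted p = 0.394). Each was higher at passage 7 in all lines. In the Wnt list, which also holds Lgr5 and Ascl2, 26 of 34 genes were higher and 4 lower at both passages, with 0 past limma's threshold, 10 and 1 at an unadjusted p under 0.05 and 3 with voom. Axin2, a negative feedback target of Wnt, was at 40.6 and 52.8 in GFP and at 43.3 and 60.8 in clone 1 (limma adjusted p = 0.701).

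Of 48 enterocyte genes tested, Lct was the only call with limma. At both passages 15 were higher and 25 lower, against 31.0% and 29.1% of all genes. With voom 6 higher and 7 lower passed, against 0.944% and 0.834% of all genes. The median was -0.12, against 0.00 for all genes. Apoa4, an apolipoprotein of lipid absorption, was at 681 and 146 in GFP and 1370 and 386 in clone 1 (voom adjusted p = 0.0114, limma 0.267). Alpi, intestinal alkaline phosphatase, was at 72.7 and 34.6 in GFP and 120 and 49.5 in clone 1 (voom 0.00201, limma 0.1002). On the lower side, Rbp2, the retinol-binding protein of enterocytes, was at 554 and 222 in GFP and 354 and 150 in clone 1 (voom 0.0159, limma 0.308). Sis, sucrase-isomaltase, was at 918 and 374 in GFP and 837 and 341 in clone 1 (limma adjusted p = 0.737). All of these were lower at passage 7 in GFP and clone 1.

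**Figure D4:**
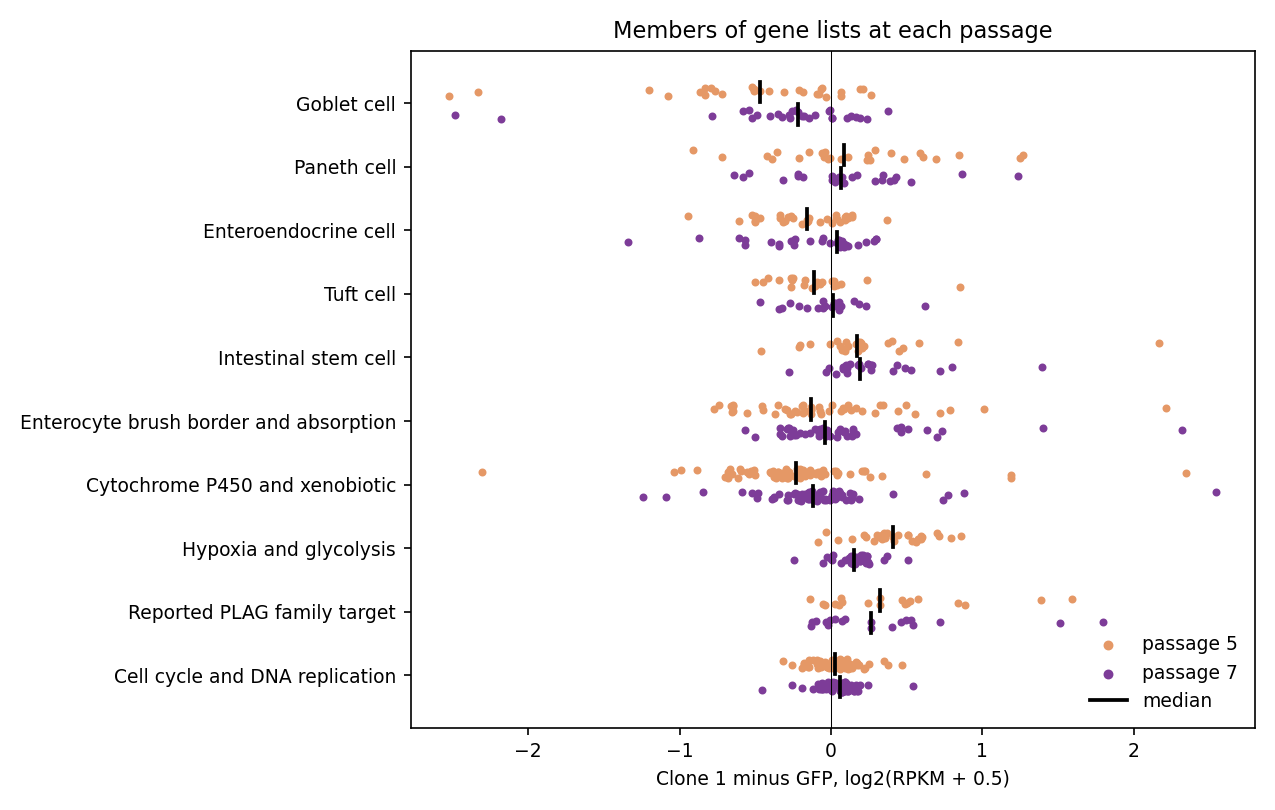
Difference between clone 1 and GFP on the log2(RPKM + 0.5) scale (x axis) of the members of 10 gene lists (y axis) at passage 5 (orange) and passage 7 (purple), with black bars at the median of each passage. Goblet cell genes have medians of -0.47 and -0.21 and hypoxia and glycolysis genes of 0.41 and 0.15, while cell cycle genes lie at 0.02 and 0.06.

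Of 70 genes of cytochrome P450 and xenobiotic metabolism tested, Cyp2w1 was the only call with limma and none was called lower. At both passages 43 were lower and 9 higher, against 29.1% and 31.0% of all genes. With an unadjusted p under 0.05, 22 were lower and 3 higher, against 713 and 848 of all 16314 genes. With voom 9 lower and 2 higher passed, against 0.834% and 0.944% of all genes. The median was -0.15. Cyp2c29 was at 55.0 and 21.6 in GFP, 10.7 and 9.91 in clone 1, and 15.5 and 5.87 in clone 3 (voom adjusted p = 0.00592, limma 0.296). Ces2a, a carboxylesterase, was at 362 and 243 in GFP and at 176 and 162 in clone 1 (voom 0.0103, limma 0.256). Cyp2b10 was at 68.6 and 37.5 in GFP and at 64.8 and 33.9 in clone 1 (limma adjusted p = 0.950).

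Of 32 hypoxia and glycolysis genes tested, 28 were higher and 1 lower at both passages, against 31.0% and 29.1% of all genes. With an unadjusted p under 0.05, 7 were higher and 0 lower, against 848 and 713 of all 16314 genes. Limma called 0, and 1 higher passed with voom, against 0.944% of all genes. The gene that passed with voom was Ndrg1, a hypoxia-inducible stress gene, at 126 and 78.8 in GFP and 179 and 94.1 in clone 1 (adjusted p = 0.0439). Slc2a1, the glucose transporter GLUT1, was at 34.5 and 33.0 in GFP and 52.6 and 39.3 in clone 1 (limma adjusted p = 0.586). Hif1a, the hypoxia-inducible factor subunit, was at 27.9 and 19.3 in GFP and 27.3 and 19.3 in clone 1 (limma adjusted p = 0.982).

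Of 27 genes reported as PLAG family targets in the literature, 19 were tested. At both passages 13 were higher and 3 lower, against 31.0% and 29.1% of all genes. None passed with limma, and 3 higher passed with voom, against 0.944% of all genes. With an unadjusted p under 0.05, 9 were higher and 1 lower, against 848 and 713 of all 16314 genes. Gpc3 and Igf2 reached the filter level only in PLAGL2 lines. The filter therefore favours members that are higher in a PLAGL2 line, and the counts lean that way. Gpc3, a heparan sulfate proteoglycan of fetal tissues, was at 0.157 and 0.0809 in GFP, 1.48 and 1.52 in clone 1, and 8.92 and 9.39 in clone 3 (voom adjusted p = 0.00455, limma 0.0875). H19, an imprinted non-coding RNA, had 1 and 0 reads in GFP, 36 and 34 in clone 1, and 258 and 412 in clone 3 (voom adjusted p = 0.0210, limma 0.251). Both genes were near the floor in GFP and were ordered GFP, clone 1, clone 3 at each passage. Btc, the EGF family ligand betacellulin, was at 4.19 and 4.29 in GFP, 8.17 and 6.26 in clone 1, and 6.74 and 7.36 in clone 3 (voom 0.0437, limma 0.297). Igf2, a growth factor in the same imprinted domain as H19, was at 0.126 and 0.241 in GFP, 0.242 and 0.238 in clone 1, and 0.965 and 1.02 in clone 3 (limma adjusted p = 0.922).

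In the list of antimicrobial and inducible defence genes 29 were tested and 0 passed with limma. At both passages 9 were higher and 10 lower, against 31.0% and 29.1% of all genes, with a median of 0.02. In this list 1 was higher and 5 lower with an unadjusted p under 0.05, against 848 and 713 of all 16314 genes. With voom 1 higher and 3 lower passed, against 0.944% and 0.834% of all genes. Reg1, a secreted C-type lectin, was at 17.0 and 17.6 in GFP, 228 and 176 in clone 1, and 53.5 and 155 in clone 3. Clone 1 was 13.4 and 9.99 times GFP (voom adjusted p = 0.0170, limma 0.172). Reg3g, a bactericidal lectin of the same family, was at 18.7 and 29.5 in GFP, 7.59 and 14.04 in clone 1, and 7.29 and 13.2 in clone 3 (voom 0.00113, limma 0.0543). Cd177, a surface glycoprotein known from neutrophils, was at 20.9 and 24.3 in GFP, 2.98 and 4.11 in clone 1, and 1.35 and 3.20 in clone 3 (voom 0.000526, limma 0.0875). Duox2, the epithelial oxidase that makes hydrogen peroxide, was at 4.91 and 6.14 in GFP and 2.58 and 3.25 in clone 1 (voom 0.0190, limma 0.355).

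Of the 28 pancreatic-type digestive enzyme genes listed, 10 were tested and 0 passed with limma. With an unadjusted p under 0.05, 4 were higher and 2 lower, against 848 and 713 of all 16314 genes. With voom 2 higher and 1 lower passed, against 0.944% and 0.834% of all genes. At both passages 7 were higher and 3 lower, against 31.0% and 29.1% of all genes, with a median of 0.20. A 2-fold difference at both passages was found for 1 on each side. Ctrb1, the protease chymotrypsinogen B, was at 18.3 and 20.6 in GFP, 125 and 102 in clone 1, and 418 and 219 in clone 3 (voom adjusted p = 0.00173, limma 0.104). Cela1, a pancreatic-type elastase, was at 10.2 and 7.57 in GFP, 1.78 and 1.41 in clone 1, and 0.762 and 1.38 in clone 3 (voom 0.00511, limma 0.155). Further genes with a 2-fold difference at both passages follow one by one. Slc28a2, a nucleoside transporter, was at 0.0859 and 0.310 in GFP, 2.09 and 2.73 in clone 1, and 6.40 and 7.17 in clone 3 (voom 0.00374, limma 0.0656). Its family member Slc28a1 was at 9.29 and 3.69 in GFP, 1.23 and 0.835 in clone 1, and 1.16 and 0.989 in clone 3 (voom 0.00217, limma 0.182).

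Enpp7, the intestinal alkaline sphingomyelinase, was at 16.3 and 4.67 in GFP, 1.16 and 0.434 in clone 1, and 1.77 and 0.844 in clone 3 (voom adjusted p = 0.000584, limma 0.0901). Sdr16c5, a retinol dehydrogenase, was at 0.192 and 0.463 in GFP, 3.76 and 4.83 in clone 1, and 15.7 and 13.6 in clone 3 (voom 0.00736, limma 0.0761). S100a6, a calcium-binding protein, was at 31.4 and 25.0 in GFP, 8.99 and 7.66 in clone 1, and 4.84 and 5.17 in clone 3 (voom 0.00105, limma 0.0638). Ceacam10, an adhesion molecule of the carcinoembryonic antigen family, was at 10.1 and 13.01 in GFP and 1.55 and 2.92 in clone 1 (voom 0.00592, limma 0.0915). Fyn, a Src family kinase, was at 0.0828 and 0.216 in GFP and 1.42 and 1.62 in clone 1 (voom 0.00330, limma 0.0875). Adm2, a peptide of the calcitonin family, was at 0.751 and 0.974 in GFP and 8.19 and 5.16 in clone 1 and passed with neither test (voom 0.131, limma 0.298). Hif3a, a subunit of the hypoxia-inducible factors, is in none of the lists and was picked after its values were seen. It was 2-fold higher at both passages, at 3.30 and 2.68 in GFP, 15.3 and 8.58 in clone 1, and 31.6 and 17.2 in clone 3 (voom 0.000366, limma 0.0901).

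Several further lists held few or no calls. Their background is all 16314 genes, of which 31.0% were higher and 29.1% lower at both passages. An unadjusted p under 0.05 was found for 848 higher and 713 lower of these. Of 74 cell cycle and DNA replication genes, 38 were higher and 14 lower at both passages, with a median of 0.04 and 2 higher and 1 lower with an unadjusted p under 0.05. Mki67, the proliferation marker, was at 88.2 and 112 in GFP and 93.4 and 116 in clone 1 (limma adjusted p = 0.683). Among 33 p53 targets, 12 were higher and 9 lower at both passages, 0 and 1 at an unadjusted p under 0.05. Among 19 Notch pathway genes, 11 were higher and 4 lower, 2 and 0 at an unadjusted p under 0.05. Of 38 genes of the unfolded protein response and secretion, 8 were higher and 20 lower at both passages, with a median of -0.04, 0 calls with limma, 2 higher and 2 lower with an unadjusted p under 0.05, and Ern2 as the single gene past voom's threshold. Hspa5, the main chaperone of the endoplasmic reticulum, was at 197 and 188 in GFP and 200.3 and 181 in clone 1 (limma adjusted p = 0.983).

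Lists of metabolism and development held few calls as well. Their background is again 31.0% of all genes higher and 29.1% lower at both passages, with 848 and 713 of 16314 at an unadjusted p under 0.05. Of 42 sterol and fatty acid synthesis genes tested, 19 were higher and 5 lower at both passages, with a median of 0.08, 0 past limma's threshold and 4 higher and 2 lower before adjustment. Fads1, a fatty acid desaturase, was at 62.4 and 75.6 in GFP, 93.2 and 107 in clone 1, and 101 and 123 in clone 3 (voom adjusted p = 0.00165, limma 0.0875). Me2, the mitochondrial malic enzyme, was at 83.8 and 81.5 in GFP and 60.1 and 64.6 in clone 1 (voom 0.0184, limma 0.220). Among 26 retinoid genes, 9 were higher and 9 lower at both passages. Adh4, an alcohol dehydrogenase that oxidises retinol, was at 44.98 and 23.3 in GFP, 19.99 and 12.8 in clone 1, and 8.40 and 6.77 in clone 3 (voom 0.00483, limma 0.216).

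Of 26 regulators of the enterocyte lineage, 10 were higher and 9 lower at both passages, against 31.0% and 29.1% of all genes. Hnf4a, the nuclear receptor of enterocyte identity, was at 257 and 264 in GFP and 257 and 257 in clone 1 (limma adjusted p = 0.942). Tfcp2l1, a transcription factor of the grainyhead family, was at 4.91 and 4.62 in GFP, 2.87 and 3.06 in clone 1, and 1.56 and 1.66 in clone 3 (voom 0.00648, limma 0.258). Of 23 fetal-like and YAP target genes, 6 were higher and 12 lower at both passages, and S100a6, described above, was the one 2-fold lower. Ly6a, the fetal and regenerative marker Sca-1, was at 0.700 and 1.08 in GFP and 1.15 and 0.807 in clone 1, with overlapping lines (limma adjusted p = 0.969).

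Clone 3 was set beside clone 1 to see where the PLAGL2 lines differ. Both comparisons with GFP use the same GFP libraries, so their likeness is not independent evidence. Between the clones, 47 genes differed, 0.288% of those tested, of which 23 were higher and 24 lower in clone 3 (limma, adjusted p under 0.05). Of the 43 protein-coding genes 2-fold higher in clone 1 at both passages, 33 were also 2-fold higher than GFP in clone 3 at both passages, and 6 differed between the clones. Of the 28 that were 2-fold lower, 16 were also 2-fold lower in clone 3, and 7 differed between the clones. The share of all genes tested that were 2-fold from GFP in clone 3 is not given here. These overlaps can therefore not be judged against a background. Ifitm3 was high in clone 1 alone, and Aldh1l1, Smpdl3a and Gcg were low in clone 1 alone, each with a difference between the clones that passed.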

How the data were processed

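The authors deposited RPKM values per gene, 1 value per library, which are read counts scaled by gene length and library size. The build was mm10, and STAR, Subread, featureCounts and edgeR were named, per the submitters' processing notes, with roles and versions not stated there. The table held 41383 entries, of which 614 repeated identifiers were dropped, and no value column was left unused (0). A deposited table of RPKM values per transcript was not used here.

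Coordinates are from GENCODE M21 on GRCm38, the assembly that mm10 names, which held 99.0% of the identifiers. Whole reads were recovered from the RPKM steps within 0.02 of a read for all but 1 of 25468 genes with a nonzero value. Annotated lengths gave 67.7% of these genes, and a length fitted to a gene's own values gave 32.3%. A fitted length can match more easily than an annotated one.

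Values were tested as log2(RPKM + 0.5) with limma 3.58.1 in R 4.3.3 (trended variance, two-sided, Benjamini-Hochberg adjustment over all 16314 genes, threshold 0.05). The terms were line and passage over all 6 libraries. Passage served as the replicate block because the labels give each letter as a passage. Deviations of same-passage libraries from their line means correlated between lines at 0.28 to 0.32. The log2(RPKM + 0.5) scale understates the change of low genes. Prior degrees of freedom were 2.45. The alternative on recovered reads used voom. Named genes were Plagl2, the genes past the threshold, the 12 per direction with the largest smaller passage difference among 2-fold genes that did not pass (predicted genes left out), and members of each list by the same measure. Hif3a and other members named with a voom value were picked after their values were seen. Gene lists were matched by symbol, and 11 symbols did not match. The comparison, its members and the lists were chosen with earlier results of these data known.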

Additional observations from a re-analysis of the deposited data

Results flagged for a closer look

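For 15 of the named genes the difference from GFP in clone 1 was not the same as in clone 3, by limma's test of clone 3 minus clone 1 (log2 scale, adjusted over all genes). Clone 3 was lower for Ifitm3 by -6.45 (adjusted p = 0.000366), for Zg16 by -2.52 (0.00192), for Clca1 by -1.37 (0.0281), for Fcgbp by -1.05 (0.0471) and for Agr2 by -0.75 (0.0475). It was also lower for Ddx3y by -4.51 (0.00192), a Y-linked gene at like levels in GFP and clone 1. It was higher for Gimap1 by 2.57 (0.0123), for Smpdl3a by 2.28 (0.0117), for Aldh1l1 by 2.14 (0.00356) and for Gcg by 0.88 (0.0207), genes that fell in clone 1, and for Ghrl by 0.93 (0.0238), which did not pass in clone 1. Among genes higher in clone 1 than in GFP, clone 3 was higher again for Cyp2w1 by 2.19 (0.00976), for Gpc3 by 2.27 (0.0281) and for Aspg by 1.57 (0.0348). The microRNA locus Mir7651 differed by 2.02 (0.0248) and rests on few reads. Each clone is a single culture, so clone and PLAGL2 level cannot be told apart.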

How the results depend on the processing

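Each count below is given as genes higher and lower in clone 1, 5 and 7 as reported, and then genes that differ between the clones, 47 as reported. With no replicate block the counts were 3 and 2, then 4. With voom on recovered reads they were 154 and 136, then 444. From the clone 1 and GFP libraries only they were 2 and 3. With no filter on low values they were 3 and 5, then 17, and with a pseudocount of 0.1 they were 5 and 6, then 31. Leaving out 1 library at a time gave 0 to 2 and 0 to 3, then 0 to 1. Chosen after seeing the data, a test of protein-coding genes alone gave 75 and 56, then 256, and of genes with at least 20 reads over the 4 libraries 33 and 26, then 107. Genes 2-fold higher and lower at both passages, 111 and 78 as reported, numbered 186 and 132 with a pseudocount of 0.1, 41 and 37 with a pseudocount of 1, 43 and 28 among protein-coding genes and 53 and 32 with at least 20 reads. Quantile normalization gave 6 and 10, and median scaling 5 and 7. The cause of these shifts was not tested. Of 84 genes named and refitted, 77 kept their direction in every setting that gave them a value. The other 7 had log2 differences near 0 and did not pass with limma. With 1 library left out at a time, the difference ranged from -0.382 to 0.157 for Cyp2b10, from -0.0607 to 0.0165 for Hnf4a, from -0.117 to 0.0873 for Hspa5, from -0.0786 to 0.122 for Spdef and from -0.01 to 0.0391 for Ddx3y. The range for Hif1a was -0.106 to 0.0738, and for Ly6a -0.389 to 0.571. Quantile normalization gave 0.0259 for Hnf4a and 0.0019 for Hspa5. Depth limits the genes near the floor, above all microRNA loci.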
